A study of Mus musculus with 2 samples.

Results

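The genes described here are 6 markers of resident liver macrophages (Kupffer cells), Clec4f, Timd4, Cd5l, Folr2, Adgre1 and Cd207, of 21887 protein-coding genes for which open chromatin was counted. They were chosen by name as surface markers of the resident cell, by a rule that uses no measured value. The proteins are of several kinds. Clec4f is a C-type lectin that in the mouse liver is made by Kupffer cells. Cd207 is langerin, a C-type lectin best known from Langerhans cells of the skin. Timd4 is a phosphatidylserine receptor that takes part in the uptake of dying cells. Cd5l, a scavenger receptor cysteine-rich protein also called AIM, is secreted rather than held in the membrane. Folr2 is folate receptor beta, and Adgre1 is the adhesion receptor F4/80. In GRCm38.p6 coordinates Clec4f lies at chr6:83644542-83656116, Cd207 at chr6:83671207-83677857, Timd4 at chr11:46810786-46844333, Cd5l at chr3:87357881-87371074, Folr2 at chr7:101839988-101857190 and Adgre1 at chr17:57358581-57483529.

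Kupffer cells sit in the liver sinusoids, where they clear particles, bacteria and worn red blood cells from the blood. In the mouse they arise before birth and keep their own numbers, and Clec4f and Timd4 are widely used to tell them from macrophages that came recently from blood monocytes. Accessible chromatin at such a gene means that the transposase could cut there, and it is not a measure of RNA or protein.

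The series has 1 library of a Spta sph/sph mouse and 1 library of a Spta wt/wt littermate. Spta is the gene of alpha spectrin, a protein of the red cell skeleton, and sph is an allele that leaves red cells fragile. Both groups were untreated males of 8 to 10 weeks, and both were enriched with beads against F4/80, the product of Adgre1, so this gene took part in how the cells were gathered. Barcodes carry the suffix 1 or 2, which no label or file used here ties to a genotype, so all values belong to library 2 or library 1 and no genotype is compared. With 1 library each there is no replicate and no test, and each interval given is a 95% one for counting error alone.

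The deposited calls marked 575 barcodes in library 2 and 637 in library 1 as cells, and 0 called barcodes were shared. Macrophages were recognised without the 6 genes, from fragments at C1qa, C1qb, C1qc, Spi1 and Csf1r. The rule asked for a fragment at 2 of the 3 loci (the C1q genes lie side by side) and at least 3 fragments there per 10000 fragments in peaks. It found 246 macrophages in library 2 and 340 in library 1, with medians of 17572.5 and 16945.5 fragments per cell. Endothelial cells, found with 8 other genes and numbering 89 in library 2 and 107 in library 1, served as cells that should lack the 6 genes. The enriched nuclei also held 19 stellate cells in library 2 and 41 in library 1, and 221 and 149 cells that met none of these rules. The libraries differed in quality. A median of 57.7% of a macrophage's fragments lay in peaks in library 2 and 74.1% in library 1. Local pile-ups (20 kb stretches with far more fragments of 1 cell than the rest of its class predicts) took up 11.5% of macrophage fragments in library 2 and 0.619% in library 1. The 8 macrophages of library 2 above 100000 fragments held 25.0% of its macrophage fragments, and library 1 had 0 such cells. The part of these differences in the results below was not tested, except where a value without those cells or fragments is given.

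RefSeq promoters were matched for 5 of the 6 genes, all but Adgre1, and those of 4 genes are shown. The promoters of Folr2 are not printed. Each runs from 250 bases before to 50 bases after the gene start, 5′ to 3′ on the gene's own strand, in the build GRCm38.p6. Capitals mark matches, on either strand, to the 9 motifs searched: PU.1 GAGGAAGT, LXR AGGTCA, RBPJ TGGGAA, SMAD GTCTAGAC, MAF TGCTGAC, E-box CACGTG, C/EBP TTGCGCAA, IRF GAAANNGAA and AP-1 TGANTCA. The Clec4f promoter lies at chr6:83656067-83656366 on the minus strand, Cd207 at chr6:83677808-83678107 on the minus strand, Timd4 at chr11:46810549-46810848 on the plus strand and Cd5l at chr3:87357631-87357930 on the plus strand.
Clec4f: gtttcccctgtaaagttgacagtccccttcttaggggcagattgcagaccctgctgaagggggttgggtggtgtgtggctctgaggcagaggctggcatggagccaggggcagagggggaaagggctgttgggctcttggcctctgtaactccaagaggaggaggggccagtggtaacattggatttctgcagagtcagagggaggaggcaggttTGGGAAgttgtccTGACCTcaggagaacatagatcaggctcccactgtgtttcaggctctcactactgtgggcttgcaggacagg
Cd207: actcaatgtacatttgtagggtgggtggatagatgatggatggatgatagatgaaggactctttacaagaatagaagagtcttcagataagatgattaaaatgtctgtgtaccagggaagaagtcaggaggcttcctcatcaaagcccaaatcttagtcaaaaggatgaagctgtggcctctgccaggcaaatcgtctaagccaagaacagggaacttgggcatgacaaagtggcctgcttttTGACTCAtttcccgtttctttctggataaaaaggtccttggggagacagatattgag
Timd4: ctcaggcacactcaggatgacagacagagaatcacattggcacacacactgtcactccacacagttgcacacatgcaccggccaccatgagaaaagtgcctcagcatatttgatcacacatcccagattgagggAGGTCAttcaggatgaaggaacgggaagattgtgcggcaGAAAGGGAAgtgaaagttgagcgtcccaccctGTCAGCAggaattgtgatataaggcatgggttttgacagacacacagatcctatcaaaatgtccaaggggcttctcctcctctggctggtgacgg
Cd5l: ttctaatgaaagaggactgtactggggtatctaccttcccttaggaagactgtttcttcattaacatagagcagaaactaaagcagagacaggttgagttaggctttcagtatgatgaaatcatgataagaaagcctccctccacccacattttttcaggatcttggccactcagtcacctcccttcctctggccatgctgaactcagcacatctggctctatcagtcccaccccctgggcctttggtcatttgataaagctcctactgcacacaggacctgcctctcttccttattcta

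The Clec4f promoter held 1 match to RBPJ and 1 to LXR, both within 35 bases upstream of the start. Cd207 held a single AP-1 match, TGACTCA, which ends on the base before the start. Timd4 held 1 match each to LXR, IRF and MAF, and Cd5l held none of the 9 letter strings. Of the Folr2 promoters, not printed here, the upstream one held 1 match to IRF and the inner one 1 to AP-1. Of 32851 promoters of the same length, 25.6% held the RBPJ letters, 16.3% LXR, 8.56% IRF, 7.81% AP-1 and 4.67% MAF. The others were found in 3.20% (PU.1), 7.15% (E-box), 0.213% (SMAD) and 0.183% (C/EBP) of promoters. A match is a description of letters and not a bound site, and most of these strings are common.

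All 6 genes had fragments in the macrophages of both libraries. The level of a gene is the number of fragments over its body with 2 kb on both sides, scaled to 1000000 fragments of the cell class (CPM). Among the lectins, Clec4f had 33.1 CPM in macrophages of library 2 and 80.9 CPM in those of library 1, from 235 and 522 fragments. Cd207, its neighbour 15091 bp away on chromosome 6, was the least covered with 8.16 CPM in library 2 and 24.5 CPM in library 1, from 58 and 158 fragments. Both lectins were thus lower in library 2 in CPM, a scale that is not relative to the median gene. The median of all genes was 19.6 CPM in macrophages of library 2 and 22.5 CPM in those of library 1. The phosphatidylserine receptor Timd4 had 36.6 CPM in library 2 and 98.6 CPM in library 1. The secreted Cd5l had 34.2 CPM in library 2 and 83.9 CPM in library 1. These levels repeated the order of the libraries seen at Clec4f. Folr2 had 22.9 CPM in library 2 and 51.2 CPM in library 1, and Adgre1 had 56.9 CPM in library 2 and 101 CPM in library 1.

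**Figure D1:**
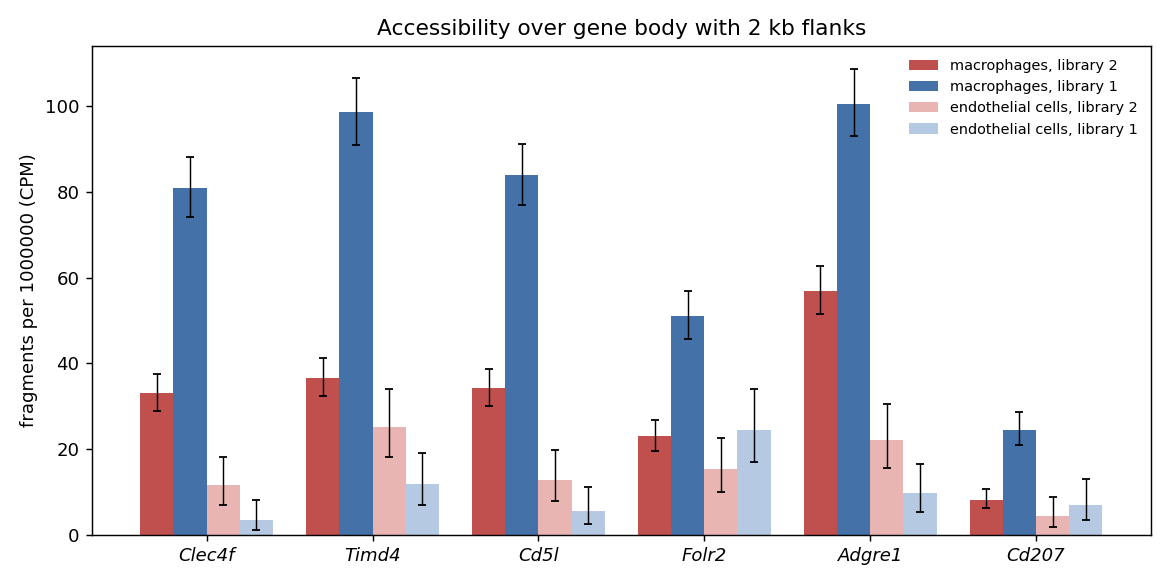
CPM over each gene body with 2 kb flanks (y axis) in macrophages and endothelial cells of library 2 and library 1, with exact Poisson 95% intervals as bars. In macrophages all 6 genes were lower in library 2, as for Timd4 with 36.6 CPM in library 2 and 98.6 CPM in library 1, while in endothelial cells Clec4f, Timd4, Cd5l and Adgre1 were higher in library 2, at Timd4 only as long as pile-ups were kept.

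The genes differ in length, so levels between genes are compared per kb. Clec4f was the most open, with 2.12 CPM per kb in macrophages of library 2 and 5.20 CPM per kb in those of library 1. Cd5l followed with 1.99 CPM per kb in library 2 and 4.88 CPM per kb in library 1, and its intervals overlapped those of Clec4f in both libraries. Folr2 had 1.08 CPM per kb in library 2 and 2.41 CPM per kb in library 1, Timd4 0.975 and 2.63 CPM per kb, and Cd207 0.766 and 2.30 CPM per kb. The intervals of these 3 genes overlapped one another in both libraries, so their order is not resolved. Lowest was Adgre1, with 0.441 CPM per kb in library 2 and 0.780 CPM per kb in library 1; it is the longest of the 6 genes. The median of all genes was 0.579 CPM per kb in library 2 and 0.635 CPM per kb in library 1, so Adgre1 lay below it in library 2, and the other 5 lay above it in both libraries.

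Relative to the median gene, the macrophages of library 2 were below those of library 1 at all 6 genes. The log2 ratio of library 2 over library 1 was -1.02 (-1.25 to -0.79) at Clec4f and -1.31 (-1.77 to -0.87) at Cd207. It was -1.16 (-1.37 to -0.95) at Timd4 and -1.02 (-1.25 to -0.80) at Cd5l. It was nearer to 0 at Folr2, with -0.88 (-1.17 to -0.61), and nearest at Adgre1, with -0.55 (-0.73 to -0.37). A ratio beyond 1 log2 unit was used as the mark of a large difference. By it 4 of the 6 genes were lower in library 2, beside 1.28% of the 16908 genes with at least 50 fragments, and 0 of 6 were higher, beside 12.7% of those genes. The median gene itself stood at -0.27, and with pile-ups masked 0.986% of genes were lower and 8.62% higher. The members' ratios lay at the 0.225th (Cd207), 0.485th (Timd4), 1.11th (Cd5l), 1.13th (Clec4f), 2.11th (Folr2) and 9.30th (Adgre1) percentile of all genes. The count of 4 rests on values close to the mark: without the 8 macrophages above 100000 fragments it was 2, and with cells thinned to 5000 fragments it was 1, while all 6 ratios stayed below 0 under every setting run.

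**Figure D2:**
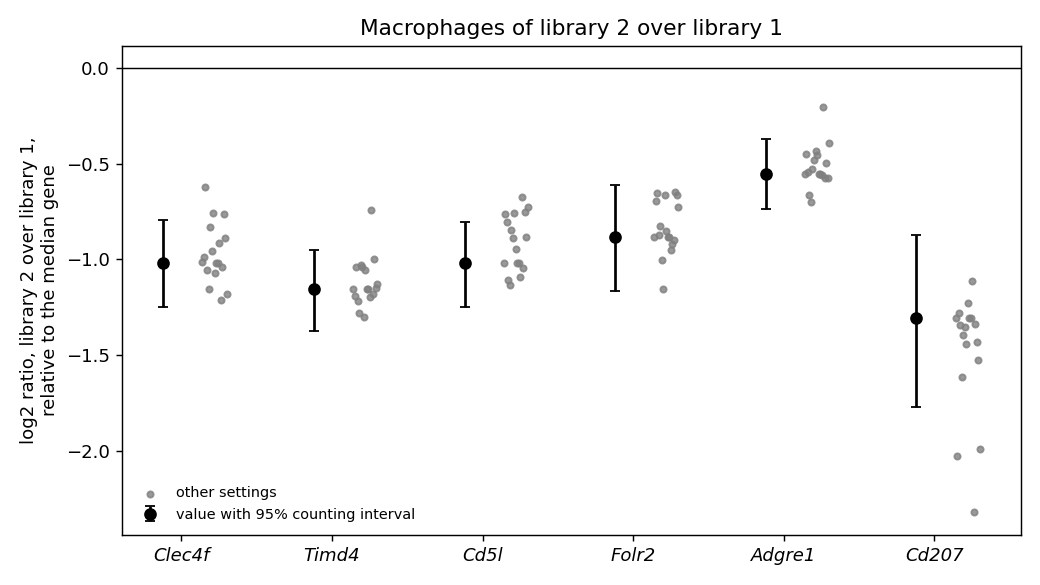
Log2 ratio of macrophage fragments, library 2 over library 1, relative to the median gene (y axis) at each gene. Black points carry 95% counting intervals and grey points are the same ratio under the other settings; every point lies below 0, from -0.21 for Adgre1 at its start to -2.32 for Cd207 at its start.

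In endothelial cells the same contrast was above 0 at 4 of the genes, of which Timd4 was no longer the higher in CPM with pile-ups masked. The log2 ratio of library 2 over library 1 there was 1.95 (0.58 to 3.82) at Clec4f, 1.37 (0.54 to 2.30) at Timd4, 1.46 (0.28 to 2.90) at Cd5l and 1.45 (0.56 to 2.49) at Adgre1. These are low levels. Clec4f had 19 fragments in endothelial cells of library 2 and 5 in those of library 1, and 28 of the 41 Timd4 fragments in library 2 lay in a pile-up. With pile-ups masked, endothelial Timd4 was at 9.46 CPM in library 2 and 11.99 CPM in library 1. Folr2 and Cd207 were both at -0.36, with intervals that span 0. Clec4f, Cd5l and Cd207 fell under the minimum of 50 fragments here. Of the 12082 genes that passed it, 9.92% were higher by more than 1 log2 unit in endothelial cells of library 2, and 2.88% were lower. The difference between the classes was not tested.

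Within a library, where handling is shared, macrophages were set against endothelial cells. In library 2, 3 of the 6 genes were higher in macrophages by more than 1 log2 unit, beside 11.1% of genes, with ratios of 1.43 (0.79 to 2.23) at Clec4f, 1.34 (0.73 to 2.09) at Cd5l and 1.31 (0.83 to 1.86) at Adgre1; 0 were lower, beside 8.52% of genes. In library 1 all 6 were, beside 12.4% of genes, with 4.40 (3.30 to 6.16) at Clec4f, 3.82 (2.92 to 5.12) at Cd5l and 3.31 (2.60 to 4.24) at Adgre1; 0 were lower, beside 9.3%. Timd4 stood at 0.49 in library 2 and 3.01 in library 1, and Cd207 at 0.80 and 1.74. With pile-ups masked the library 2 values were 2.10 at Timd4 and 1.53 at Cd207, so that 5 of 6 genes were higher there, beside 9.08% of genes. Folr2 stood at 0.52 in library 2 and 1.04 in library 1. In stellate cells Folr2 had 20.7 CPM in library 2 and 31.0 CPM in library 1, from 9 and 18 fragments. Timd4 had 20.7 and 5.16 CPM there, from 9 and 3 fragments, and Clec4f had 0 fragments in both libraries. The window of Folr2 overlaps those of Inppl1 and Folr1. The 2 tiles beyond the end of Folr2 on the Inppl1 side held 10 and 17 endothelial fragments in library 2 and 20 and 22 in library 1. Without flanks the Folr2 ratio was 1.33 in library 2 and 1.83 in library 1.

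At the gene starts alone, endothelial cells held 0 to 6 fragments per gene. Within 1 kb of the start, Clec4f had 41 macrophage and 1 endothelial fragments in library 2, and 127 and 2 in library 1. Cd5l had 89 macrophage and 3 endothelial fragments in library 2, and 189 and 3 in library 1. Timd4 had 43 macrophage and 2 endothelial fragments in library 2, and 96 and 2 in library 1. Endothelial cells, fewer and with fewer fragments in sum, thus held few at these starts. Adgre1 had 103 macrophage and 6 endothelial fragments in library 2. At the start of Folr2 endothelial cells had 0 fragments in both libraries, beside 18 macrophage fragments in library 2 and 46 in library 1. Against the floor of 3 fragments this makes Folr2 at least 1.38-fold higher in macrophages in library 2 and at least 3.39-fold in library 1. In library 1 the starts of Adgre1 and Cd207 also had 0 endothelial fragments, against which macrophages were at least 11.7-fold and 4.13-fold higher. Cd207 in library 2 was the exception, with 8 macrophage and 3 endothelial fragments.

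The 1 kb tiles show where in each gene the libraries differed. Of 239 tiles across the 6 genes, 64 held at least 20 macrophage fragments. Relative to the median tile, 23 of the 64 were lower in library 2 by more than 1 log2 unit, beside 9.62% of 97399 such tiles, and 0 were higher, beside 9.44%. The median tile was itself at -0.70, and with pile-ups masked the counts were again 23 and 0, beside 9.26% lower and 8.67% higher of all such tiles.

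Among the lectins, the lowest ratio of a tile lay at the start of Cd207. Its start tile had 8 fragments in library 2, against 51 in library 1, which is a log2 ratio of -2.04 (-3.40 to -1.03). The other open tile of Cd207, 4.4 kb into the gene, had 31 fragments in library 2, against 58 in library 1, with a ratio of -0.34 (-1.03 to 0.31). The difference was thus wider at the start of Cd207 than inside it, and the printed promoter alone held 5 fragments in library 2 and 43 in library 1. Clec4f had its fullest tile over the start, with 38 fragments in library 2 and 101 in library 1 (-0.84). A second peak, 12.6 kb from the start and just past the gene's end, held 31 fragments in library 2 and 86 in library 1 (-0.90). The tiles just inside the Clec4f start differed more, with 7 fragments in library 2 and 36 in library 1 in the first of them (-1.73), while the tile 3.6 kb in held 32 and 34 (0.47, -0.27 to 1.21). Accessibility at Clec4f was thus unevenly lower along the gene.

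Timd4 was open at its start and at several sites inside. Its start tile held 41 fragments in library 2 and 84 in library 1 (-0.47, -1.05 to 0.08). The tile 1.7 kb inside held 23 fragments in library 2 and 101 in library 1 (-1.55, -2.30 to -0.91). The sites 19.7 and 23.7 kb inside held 13 fragments each in library 2, and 57 and 62 in library 1 (-1.53 and -1.65). Other inner tiles of Timd4 were nearer to the median tile, such as those 6.7 kb inside (-0.16) and 7.7 kb inside (0.22), so its inner sites did not share 1 size of difference, and the intervals of the inner tiles named here overlapped that of the start. The printed Timd4 promoter, with its LXR, IRF and MAF letters, held 37 fragments in library 2 and 69 in library 1.

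Cd5l had its fullest tile at the start, which held 77 fragments in library 2 and 149 in library 1 (-0.39, -0.81 to 0.01), and the promoter printed above held 75 and 130 of them. A site 11.6 kb inside Cd5l held 23 fragments in library 2 and 78 in library 1 (-1.18, -1.94 to -0.52). The tile 4.6 kb inside held 7 and 27 (-1.32, -2.83 to -0.16). Of the 15 Cd5l tiles with at least 20 fragments, 7 were below -1, while those 2.6, 5.6, 7.6 and 8.6 kb inside stood between -0.09 and 0.20. The widest difference at Folr2 lay 12.7 kb inside, in a tile with 4 fragments in library 2 and 25 in library 1 (-1.95, -4.07 to -0.55). The tile at its start held 16 fragments in library 2 and 42 in library 1 (-0.81, -1.77 to 0.03), and the tile 8.7 kb inside held 12 and 39 (-1.10). Of its 2 RefSeq promoters, the upstream one held 10 fragments in library 2 and 37 in library 1, and the inner one 7 and 20.

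Adgre1 had its fullest tile at the start, with 18.9% of its fragments in library 2 and 14.6% in library 1. There no difference between the libraries beyond that of the median tile was detectable. In CPM the start tile was lower in library 2, at 12.1 CPM against 17.4 CPM in library 1. The start tile had 86 fragments in library 2 and 112 in library 1, a ratio of 0.18 (-0.25 to 0.59). The next tile into the gene held 10 fragments in library 2 and 38 in library 1 (-1.32, -2.54 to -0.34), and the one after it 20 and 56 (-0.91). A tile 50.9 kb inside held 10 and 32 (-1.07). Of the 7 Adgre1 tiles with at least 20 fragments, 6 stood below the median tile and 1 above it. The other tiles of Adgre1 held few fragments and did not share 1 direction. One 64.9 kb inside held 8 fragments in library 2 and 1 in library 1, and one 99.9 kb inside held 0 and 10. Its strand is not given by the gene table, and the start is taken as the end of the gene with more fragments.

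**Figure D3:**
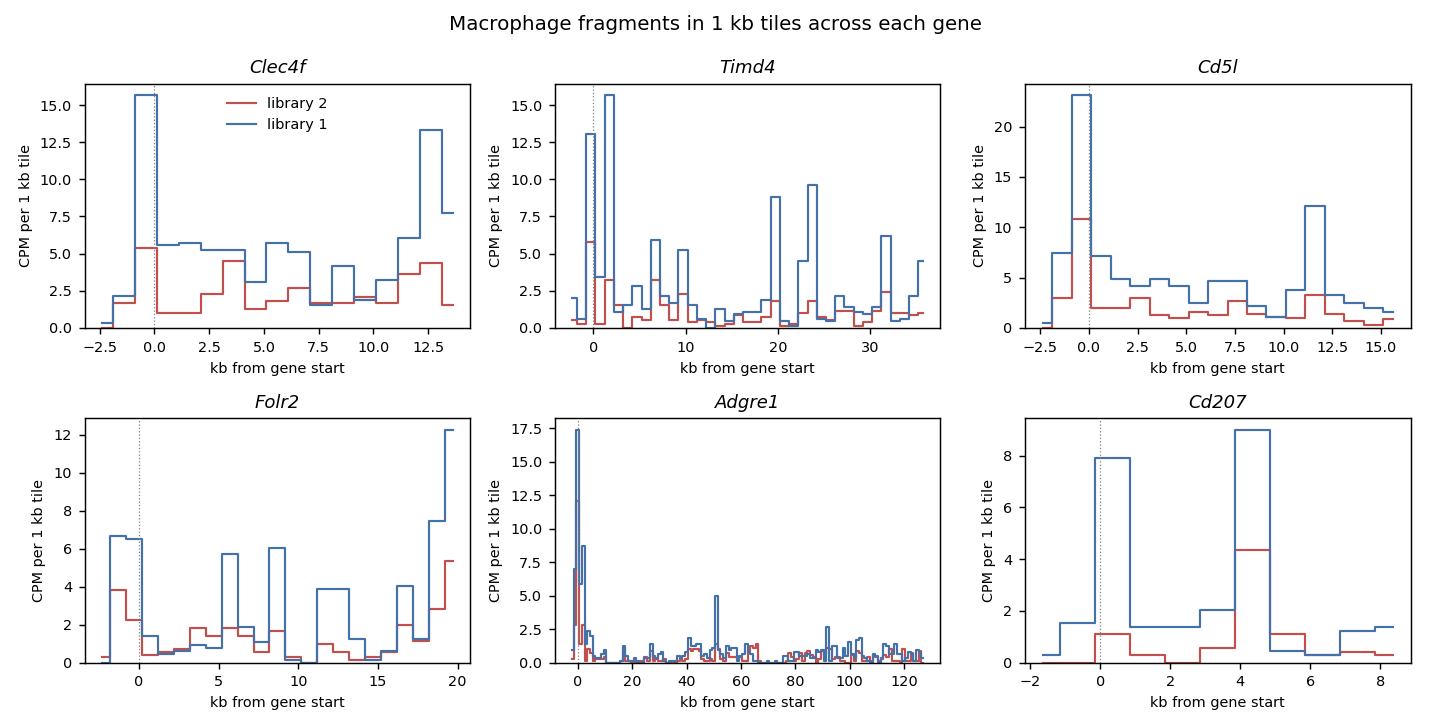
Macrophage CPM in 1 kb tiles (y axis) against distance from the gene start in kb (x axis) for library 2 and library 1, 1 panel per gene, with a dotted line at the start. Library 2 stands below library 1 at most open sites, as at the start of Cd207 (8 fragments in library 2 and 51 in library 1).

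Per cell, fewer macrophages of library 2 had a fragment at each gene. Clec4f was seen in 35.8% of macrophages in library 2 and 65.0% in library 1, Timd4 in 39.4% and 68.8%, and Cd207 in 12.6% and 31.2%. Cd5l was seen in 46.7% in library 2 and 63.2% in library 1, Folr2 in 34.6% and 53.8%, and Adgre1 in 56.5% and 70.6%. With each cell thinned to 5000 fragments, 241 macrophages were left in library 2 and 329 in library 1. All shares dropped and the order of the libraries held at each gene. Thinning evens the fragments per cell but not the part in peaks, a median of 57.7% in library 2 and 74.1% in library 1. The shares were not set beside those of all genes. Thinned shares were 16.2% in library 2 and 31.0% in library 1 for Clec4f, 17.4% and 36.2% for Timd4, and 17.4% and 31.0% for Cd5l. They were 13.3% in library 2 and 23.1% in library 1 for Folr2, 23.2% and 37.4% for Adgre1, and 3.32% and 12.2% for Cd207.

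A macrophage had a fragment at a mean of 2.26 of the 6 genes in library 2 and 3.53 in library 1, and at 0.909 and 1.71 after thinning. Endothelial cells had a mean of 0.753 in library 2 and 0.664 in library 1. All 6 genes were seen in 5 macrophages of library 2 and 27 of library 1, and none of them in 28 and 12. Macrophages of library 2 most often had 1 or 2 of the genes, and those of library 1 most often 4 or 5. After thinning the most frequent numbers were 0 or 1 in library 2 (92 and 93 of 241 cells) and 1 or 2 in library 1 (105 and 104 of 329 cells).

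**Figure D4:**
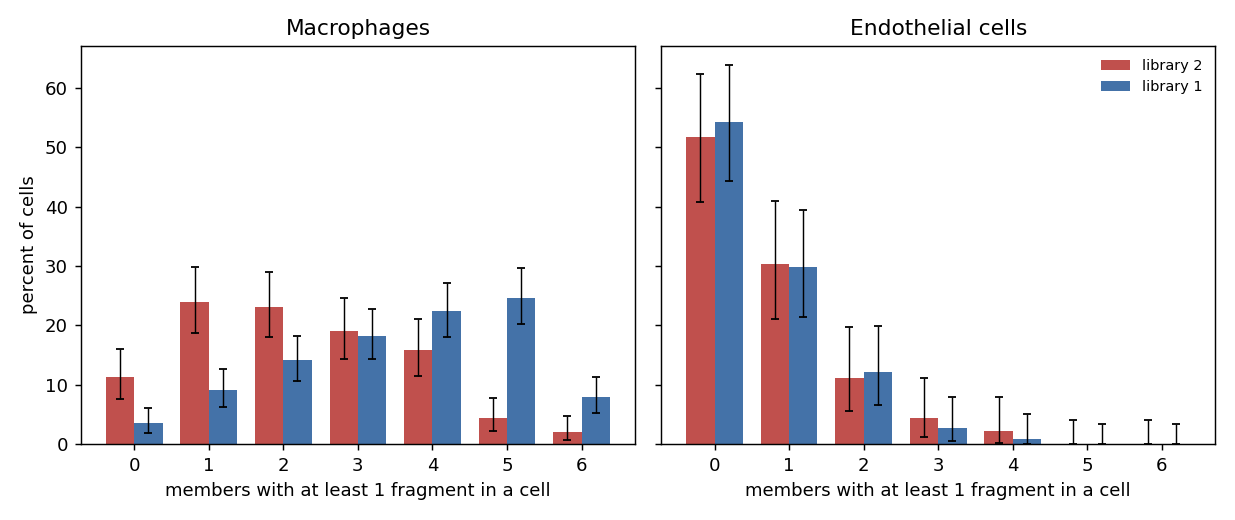
Percent of cells (y axis) by the number of the 6 genes at which a cell had at least 1 fragment (x axis), in macrophages (left) and endothelial cells (right) of library 2 and library 1, with exact 95% intervals. Macrophages averaged 2.26 genes in library 2 and 3.53 in library 1, and endothelial cells averaged 0.753 and 0.664.

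Co-opening was read as the number of macrophages with fragments at both genes of a pair, over the number that the cells' depth alone would give, within 5 bins of fragments in peaks. Of 15 pairs, 11 in library 2 and 13 in library 1 were above 1, with medians of 1.05 and 1.04, and 0 intervals excluded 1 in either library. Paired with all other genes, the members had medians of 0.999 (Clec4f) to 1.06 (Cd207) in library 2 and 0.995 (Clec4f) to 1.01 (Adgre1) in library 1, so ratios just above 1 were usual. The highest pair in both was Clec4f with Cd207, the 2 lectins that neighbour each other. They were seen together in 19 cells against 12.1 expected in library 2, a ratio of 1.57 (0.95 to 2.45), and in 89 against 73.5 in library 1, a ratio of 1.21 (0.97 to 1.49). Other pairs of genes 10 to 20 kb apart had a median of 1.09 over 1963 pairs in library 2 and 1.03 over 1950 pairs in library 1. Their 95th percentiles were 1.48 in library 2 and 1.26 in library 1, so the lectin pair lay above the first and below the second. Among all pairs of Clec4f with other genes, the lectin pair lay at the 99.6th percentile in library 2 and the 98.9th in library 1. Among all pairs of Cd207 it lay at the 96.7th and 95.4th. Among the more distant pairs, Clec4f with Cd5l stood at 1.25 in library 2 and 1.05 in library 1, and Folr2 with Adgre1 at 0.91 and 1.00. The former lay at the 97.4th and 85.4th percentile of the pairs of Cd5l, and the latter at the 5.65th and 43.1st of those of Adgre1. In these values 1 fragment made a gene open. Each interval treats the number of cells with both genes as a Poisson count. The expected number takes the cells at each gene as given, and the overlap then varies less than a Poisson count. The intervals are thus too wide to decide whether a pair co-opened beyond what cell depth gives. When 2 fragments were asked for, Clec4f with Cd207 in library 2 stood at 3.04 (1.22 to 6.26), the only interval of the 15 in either library that excluded 1. It rests on 7 cells against 2.30 expected, with 9 cells open at Cd207. In library 1 the same pair stood at 1.14 (0.69 to 1.78).

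**Figure D5:**
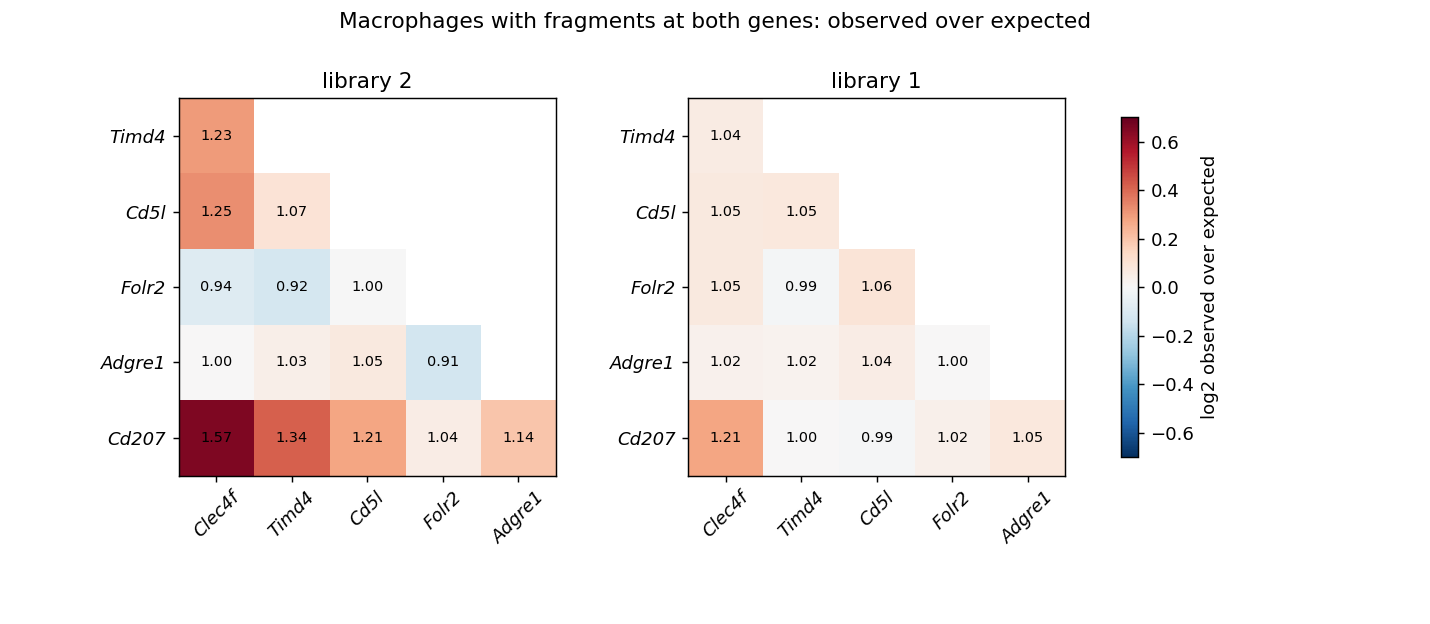
Observed over expected number of macrophages with fragments at both genes of a pair, printed in each square for library 2 (left) and library 1 (right); colour shows its log2. Clec4f with Cd207 is highest in both, 1.57 in library 2 and 1.21 in library 1. No interval excludes 1, but these Poisson intervals are wider than the spread of such an overlap.

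Other genes of the resident cell stood beside the 6. Of 15 further Kupffer cell genes, all 15 passed the minimum and all 15 ratios of library 2 over library 1 were below 0 in macrophages. Their median was -0.67, and 4 were below -1, beside 1.28% of all genes. The 3 lowest were Cd163, the haptoglobin-hemoglobin receptor, at -1.44, Vsig4, a complement receptor, at -1.37, and Il18bp, which binds interleukin 18, at -1.04. The 3 highest were Smpdl3a at -0.22, Spic, a transcription factor of red pulp and other iron-handling macrophages, at -0.25 and Slc16a9 at -0.50. Against endothelial cells, 9 of the 15 were higher in macrophages by more than 1 log2 unit in library 2, beside 11.1% of genes. In library 1 these were 11, beside 12.4%. Cdh5 and Id3 went the other way, at -1.93 and -0.08 in library 2 and -0.76 and -0.29 in library 1. The 5 genes that define the macrophages were also lower in library 2, 5 of 5 below 0 with a median of -0.64. Of these, 1 was below -1, beside 1.28% of all genes. The loci that chose the cells thus shared the direction, but the rule itself in part sets their level in the chosen cells. They are therefore no independent comparison for the members. Their summed level was 314 CPM in macrophages of library 2 and 588 CPM in those of library 1. Fewer cells of the resident kind and less accessible chromatin per cell cannot be told apart in these sums.

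Of 12 genes of monocytes and recruited macrophages, 11 passed the minimum, with a median ratio of -0.34. Gpnmb and Fn1, both known from macrophages in injured tissue, were the 2 above 1, each at 1.40, beside 12.7% of all genes. Ccr2, the monocyte chemokine receptor, was the 1 below -1, at -1.08, beside 1.28% of all genes. A list of 11 genes is too short to tell these counts from those shares. With pile-ups masked Fn1 was at 0.85 and no longer past 1, and Gpnmb was at 1.32. The list thus did not share 1 direction, and its summed level was 232 CPM in macrophages of library 2 and 314 CPM in those of library 1, with none of its genes at 0. Of 8 genes of dendritic and Langerhans cells, where Cd207 is also known, 7 passed the minimum, with a median of -0.23 and 0 past 1 in either direction. Eosinophils carry F4/80 as well, and 3 of their 5 genes passed the minimum. Ccr3 stood at -1.11, Siglecf at -1.01 and Il5ra at 0.17, while Epx and Prg2, with fewer fragments, were at 1.80 and 1.92. With pile-ups masked Ccr3 was at -1.04, Siglecf at -0.93, Il5ra at 0.25, Epx at 0.33 and Prg2 at 1.15. Endothelial markers in macrophages summed to 368 CPM in library 2 and 457 CPM in library 1, with a median ratio of 0.28 over 8 of 8 genes, and stellate markers to 221 and 169 CPM, with 0.64 over 6 of 7 genes; none was at 0. The part of such other cells in the members' values was not tested beyond leaving out cells that met another class's rule, which gave -0.76 at Clec4f, -0.76 at Cd5l, -0.66 at Folr2 and -0.43 at Adgre1, nearer to 0, and -1.30 at Timd4 and -1.44 at Cd207, further from it.

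The genes next to the members did not all share their direction. Relative to the median gene, Vav1, a signalling protein of blood cells next to Adgre1, stood at -0.94. Vmn2r120, nearer to Adgre1 at 25254 bp, was at 0.93 (0.41 with pile-ups masked). Havcr1 beside Timd4 was at -0.12 and Fcrl1 beside Cd5l at -0.16. Near Folr2, Phox2a was at 0.49 (0.11 with pile-ups masked), Clpb at -0.12, Anapc15 at -0.31, Tomt at -0.08 and Lamtor1 at -0.24. Inppl1 and Folr1, whose windows overlap that of Folr2, were at -0.07 and -0.52, and Vax2, 33382 bp from Cd207, was at 0.84 (0.41 with pile-ups masked). The nearest neighbour of Cd207 is Clec4f, which was lower too. The lower levels at Timd4 and Cd5l were not shared at the same size by Havcr1 and Fcrl1.

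Over the 8 groups of 4 cell classes in 2 libraries, the gene whose level ran most like that of Clec4f was Adgb (Pearson r of log2(CPM + 1) 0.993), then Adgre1 and Kcnj16 (0.992 each). For Adgre1 these were Rab39 (0.995), Tlr11 (0.993) and Clec4f (0.992). For Timd4 they were Slc18a1 (0.981), Cd300ld4 (0.980) and Ccl9 (0.973), and for Cd5l they were Slc25a38 (0.991), Eif4a1 (0.985) and Cyth4 (0.985). For Cd207 they were Slc46a3 (0.992) and Tm6sf1 (0.990), and for Folr2 they were Rbsn (0.963), Icos (0.963) and Rbbp8 (0.960). Folr2 stood apart from the others, with an r of 0.11 to 0.42 with the remaining 5 members. The 8 points share their libraries and are few, so these values are a description.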

How the data were processed

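Open chromatin was measured by droplet-based single-nucleus ATAC-seq in 2 libraries. Per the submitters' processing notes, Cell Ranger ATAC 1.2.0, R 3.6.1, Seurat and Signac 0.2.4 were used with build GRCm38.p5; filters are not given in the sources used here. The authors deposited, for every unique fragment, raw counts of its read pairs, and a per-barcode table with totals and cell calls. Each unique fragment was counted once, and all 9487079 (library 1) and 12175278 (library 2) fragments of called cells were used.

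Gene coordinates and promoters came from RefSeq tables of GRCm38.p6, and all 6 members matched. The macrophage, endothelial (3 of 8 markers and 15 fragments per 10000 in peaks) and stellate rules (3 of 7 and 10), the members and the gene lists were chosen with earlier results of these data known. Named genes were the members, their neighbours within 50 kb, the 3 extremes of the Kupffer cell list and the 3 genes most like each member, of which 1 is not reported here. Doublets were not called; cells that met another class's rule were left out as an alternative. Log2 ratios have 0.5 added to both counts, exact conditional binomial intervals and the median gene (at least 50 fragments) or tile (at least 20) subtracted. Levels and the observed numbers in co-opening have exact Poisson and shares exact Clopper-Pearson intervals (scipy 1.17.1, numpy 2.4.6, pandas 2.3.3). Pile-ups are 20 kb bins where a cell had 10 or more fragments and 10 times the number expected from its class. Interval coverage and co-opening were tested on simulated data. Alternatives were other cell filters and rules, windows, scalings, thinning and masking; leaving out cells above 100000 fragments, and masking together with a minimum of 50% in peaks, were added after seeing the data.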

Additional observations from a re-analysis of the deposited data

Results flagged for a closer look

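Barcodes that the authors did not call cells also carried fragments at the 6 genes, in data outside the comparisons. Together the 6 genes reached 96.6 CPM in the uncalled barcodes of library 2 (9480832 fragments) and 208 CPM in those of library 1 (1914615 fragments). Clec4f had 11.5 CPM there in library 2 and 32.9 CPM in library 1, and Timd4 had 15.5 and 36.6 CPM. The uncalled barcodes thus kept the order of the libraries seen in macrophages, with library 2 lower in CPM at each of the 6 genes. These values are not relative to the median gene, and other genes were not counted in these barcodes. Whether the order is particular to the 6 genes is therefore not known. What these barcodes hold was not tested.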

How the results depend on the processing

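The 6 log2 ratios of library 2 over library 1 in macrophages were below 0 under all 17 alternatives, of which 2 were added after seeing the data. Of these values, 19 moved by more than the counting interval or, for counts, by more than 1.5 times. When 50% of a cell's fragments had to lie in peaks, Cd5l was -0.76, Cd207 -2.03 and 2 genes were below -1; with masking as well, Cd5l was -0.72 and Cd207 -1.99. A stricter macrophage rule gave Clec4f -0.62 and 2 genes. Leaving out cells that met another class's rule gave Clec4f -0.76, Cd5l -0.76 and 2 genes, and leaving out cells above 100000 fragments gave 2 genes. Thinning gave Clec4f -0.76, Cd5l -0.75 and 1 gene. Within 1 kb of the gene start Timd4 was -0.74, Cd5l -0.67, Adgre1 -0.21 (-0.58 to 0.16), Cd207 -2.32, and 2 genes were below -1. Scaling by fragments in peaks or near starts cannot move a ratio that is relative to the median gene.

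Of macrophages over endothelial cells in library 2, masking gave Timd4 2.10 and 5 genes above 1, and no flanks gave Folr2 1.33. Within 1 kb of the start Clec4f was 2.85, Timd4 2.18, Cd5l 2.73, Folr2 3.27, Adgre1 2.05 and Cd207 -0.66 (-2.59 to 2.02), with 5 genes above 1. In library 1 no flanks gave Folr2 1.83, and the start gave Folr2 4.48, Adgre1 6.25 and Cd207 4.76; where endothelial cells had 0 fragments, these values depend on the 0.5 added and are no bound. With no minimum per gene, 4048 genes were higher and 572 lower in library 2 by more than 1 log2 unit, against 2146 and 216. With at least 2 fragments per gene, Clec4f with Cd207 co-opened at 3.04 (1.22 to 6.26) in library 2, the 1 interval of 15 that excluded 1. That value rests on 7 cells, and library 1 gave 1.14 (0.69 to 1.78). No paired analysis was possible because each group has 1 library.

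Counts set the precision: Cd207 rests on 58 fragments in library 2, and endothelial values over gene bodies rest on as few as 5 fragments, and at gene starts on 0 to 6.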
